A study of Mus musculus with 4 samples.

Results

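The genes described here encode the machinery that makes the lysosome acidic and the proteins that work inside it: the vacuolar proton pump, membrane proteins of the organelle and its soluble hydrolases. Members were taken by name from the deposited gene table, as 33 listed symbols and every symbol that begins with Atp6v0 or Atp6v1, and had to reach 10 counts summed over the 4 libraries. Of 56 rows with a matching name, 50 met that minimum and 6 did not, out of 34745 genes in the table. This rule uses names and summed counts, not differences between the groups. The list itself was chosen with earlier results of these data known.

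The lysosome is the acidic compartment in which macrophages break down what they engulf and what autophagy delivers. Its pump has a cytosolic sector, V1, that splits ATP and a membrane sector, V0, that carries protons across. Soluble hydrolases such as cathepsins reach the organelle as precursors and work at the low pH that the pump maintains. TFEB and related transcription factors are known to raise many of these genes together through a short E-box-like sequence in their promoters.

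RNA was sequenced from adherent peritoneal macrophages elicited with thioglycolate in mice labelled wildtype C57BL/6. The MB-3 group (2 libraries) was treated beforehand with MB-3 at 50 µM, a compound known for inhibiting the acetyltransferase GCN5. The DMSO group (2 libraries) received the solvent DMSO. Both groups were then given LPS, a bacterial cell-wall component that activates macrophages, at 100 ng/ml for 4 hours, so every comparison is between LPS-treated cells. The series title speaks of macrophages derived from bone marrow, whereas each sample is labelled as peritoneal, and the sample labels are used here. No label gives the age of the mice. Since none says that replicates were separate cultures or mice, each p-value reflects the spread of these libraries alone, which may be technical.

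The libraries held 18538799 and 17864065 counts with MB-3, and 21320618 and 15598531 counts with DMSO. Markers of macrophages were present, the most abundant being Lyz2 at 28304 and 28296 CPM with MB-3, against 21558 and 22129 CPM with DMSO. CPM is the usual depth-scaled count, here with library sizes adjusted by trimmed mean of M-values (TMM). The 8 macrophage symbols, of which Itgam stood on 2 rows, summed to 29660 and 29670 CPM with MB-3 and to 23290 and 23970 CPM with DMSO. Lyz2 made up most of these sums. Of these 9 rows 4 were higher with MB-3 and 2 lower, Fcgr1 (log2 fold change -2.38) and Cd14 (-0.98). The Itgam row called higher had 190 and 132 CPM with MB-3, against 58.6 and 34.8 CPM with DMSO. The other Itgam row had 0.112 and 75.1 CPM with MB-3, against 78.1 and 92.6 CPM with DMSO. Neutrophil markers, led in CPM by Csf3r, summed to 44.4 and 35.0 CPM with MB-3 and to 70.4 and 76.9 CPM with DMSO. Of 3 tested rows 2 were lower, those of Csf3r and S100a8. Among the 8 neutrophil markers Ly6g had 0 counts in every library and S100a9 was at 0.558 CPM or less. Fibroblast markers, led by Dcn, summed to 67.7 and 131 CPM with MB-3 and to 50.1 and 105 CPM with DMSO, with 0 of 4 called. The sums for B cells (led by Ighm), T cells (Cd3g), dendritic cells (Zbtb46), mast cells (Tpsb2), eosinophils (Siglecf), mesothelial cells (Upk3b) and NK cells (Klrb1c) were all at or below 8.65 CPM, and none of their tested markers was called. Xcr1 of dendritic cells, Epx and Prg2 of eosinophils and Ncr1 of NK cells had 0 counts in every library. The part of these shifts in the results below was not tested, and in bulk RNA a change in the number of cells of a type cannot be told apart from a change in RNA per cell.

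A promoter sequence that TFEB-type factors are known to bind is shown first. It was found in a minority of the members. Promoter windows of 300 bases, from 250 bases before to 50 bases after each transcript start, were taken from RefSeq (build GRCm38.p6) and were found for 41 of the 50 members, as 46 windows. The E-box CACGTG, which reads the same on both strands, occurred in 15 of the 46 member windows (32.6%), against 2349 of 32851 windows of all genes (7.15%). The longer form TCACGTGA, which contains that E-box and is also the same on both strands, occurred in 7 member windows (15.2%) and in 320 of all windows (0.974%). Windows of all genes include non-coding genes and were not matched for base composition. Since the sequence is known from promoters of such genes, these shares describe the list and not the response to MB-3. The stretches around TCACGTGA in these 7 genes are printed in the direction of transcription, with those 8 bases in capitals, so that the sites can be compared.

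Atp6v0d1: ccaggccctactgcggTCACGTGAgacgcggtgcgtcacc
Atp6v1a: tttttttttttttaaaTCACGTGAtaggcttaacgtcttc
Atp6v0e: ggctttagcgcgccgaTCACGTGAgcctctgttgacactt
Ctsd: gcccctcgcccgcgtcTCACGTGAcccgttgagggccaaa
Ctsa, first copy: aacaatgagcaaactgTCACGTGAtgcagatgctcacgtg
Ctsa, second copy: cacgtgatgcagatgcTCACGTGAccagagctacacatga
Gla, first copy: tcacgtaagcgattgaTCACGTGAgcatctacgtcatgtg
Gla, second copy: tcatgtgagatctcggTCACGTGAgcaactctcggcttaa
Mcoln1: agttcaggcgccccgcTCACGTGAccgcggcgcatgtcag

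Counted with the first transcribed base as 1, the 8 bases ran from -4 to 4 in Atp6v0d1 (the stretch is chr8:105566045-105566084, minus strand) and from -99 to -92 in Ctsd (chr7:142387903-142387942, minus strand). They ran from 3 to 10 in Atp6v0e (chr17:26676382-26676421, plus strand) and from -46 to -39 in Mcoln1 (chr8:3500457-3500496, plus strand). Atp6v1a had them from -132 to -125 (chr16:44139368-44139407, minus strand). Ctsa and Gla each held them at 2 places, from -13 to -6 and from 5 to 12 in Ctsa (stretches chr2:164833744-164833783 and chr2:164833761-164833800, plus strand), and from -228 to -221 and from -195 to -188 in Gla (stretches chrX:134601210-134601249 and chrX:134601177-134601216, minus strand). The 2 Ctsa stretches overlap each other, as do those of Gla.

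The window of Gla, the gene of alpha-galactosidase A, is shown in full because it holds 2 copies of the E-box, marked in capitals, and because Gla rose most among the hydrolase genes of the members. It lies at chrX:134600956-134601255 on the minus strand.

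Gla: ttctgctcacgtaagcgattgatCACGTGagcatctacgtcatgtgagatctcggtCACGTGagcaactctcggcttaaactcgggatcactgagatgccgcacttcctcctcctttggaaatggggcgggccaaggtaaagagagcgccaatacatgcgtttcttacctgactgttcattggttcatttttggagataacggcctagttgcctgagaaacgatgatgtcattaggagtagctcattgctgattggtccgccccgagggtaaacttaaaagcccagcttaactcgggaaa

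The comparison asked which of these transcripts differed after pre-treatment with MB-3. Of the 49 members tested, 24 rose with MB-3, 2 fell and 23 did not pass, at a threshold of 0.05 on p adjusted by Benjamini-Hochberg over 11841 genes. The test was the quasi-likelihood F-test of edgeR. Without MB-3 replicate 1, 16 rose and 2 fell, while higher calls over all genes numbered 1283 in place of 1999. The members called higher were 49.0% of those tested, where 16.9% of all tested genes were called higher. The members called lower were 4.08%, where 20.2% of all tested genes were called lower. The median log2 fold change of the members was 0.28, against -0.01 over all tested genes. Atp6v0d2 was the 1 called member of 49 that changed over 2-fold, where 14.6% of all tested genes were called and changed over 2-fold in either direction.

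Most members are abundant, and abundant genes are called more often, so the same counts were made among genes with at least 10 CPM in 2 libraries. There 26 of 47 members were higher and 2 lower, against 23.5% higher and 26.1% lower among 7776 genes. This floor does not match the 7776 genes to the members in abundance. Both MB-3 libraries lay above both DMSO libraries for 37 of the 49 tested members (75.5%), where this held for 33.8% of all tested genes. Both lay below for 5 members (10.2%), against 37.0% of all tested genes. Together the members took 10.4% and 10.5% of all counts with MB-3 and 8.55% and 8.37% with DMSO.

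**Figure D1:**
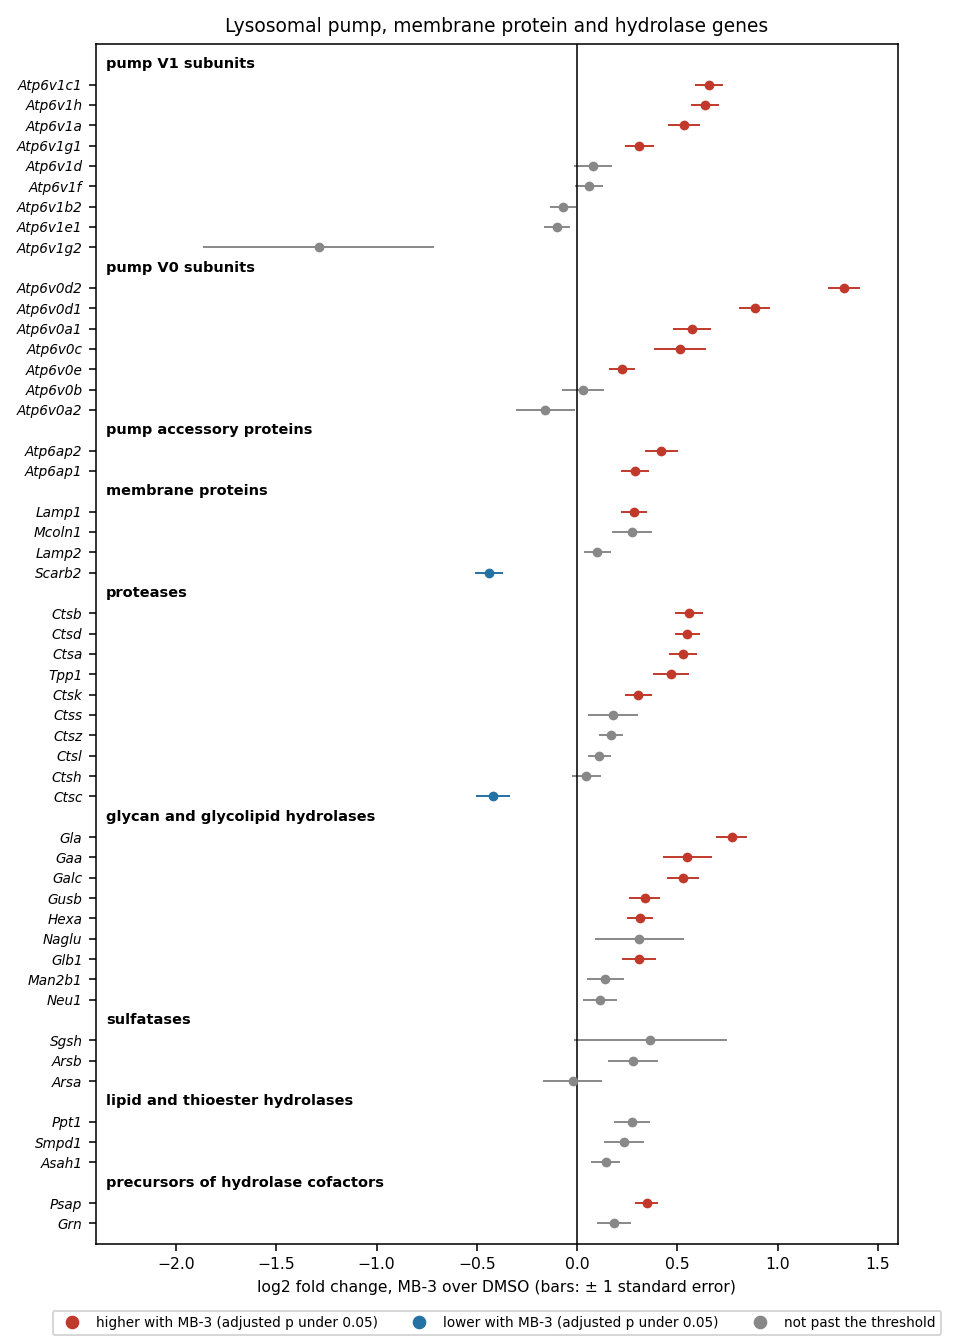
Log2 fold change (MB-3 over DMSO, x axis) of the 49 tested members, by role, with bars of 1 standard error and colours for the edgeR call. The 24 red points lie right of 0 and include no sulfatase or lipid hydrolase, the 2 blue points are Scarb2 and Ctsc, and the largest rise is that of Atp6v0d2 at 1.33.

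**Figure D2:**
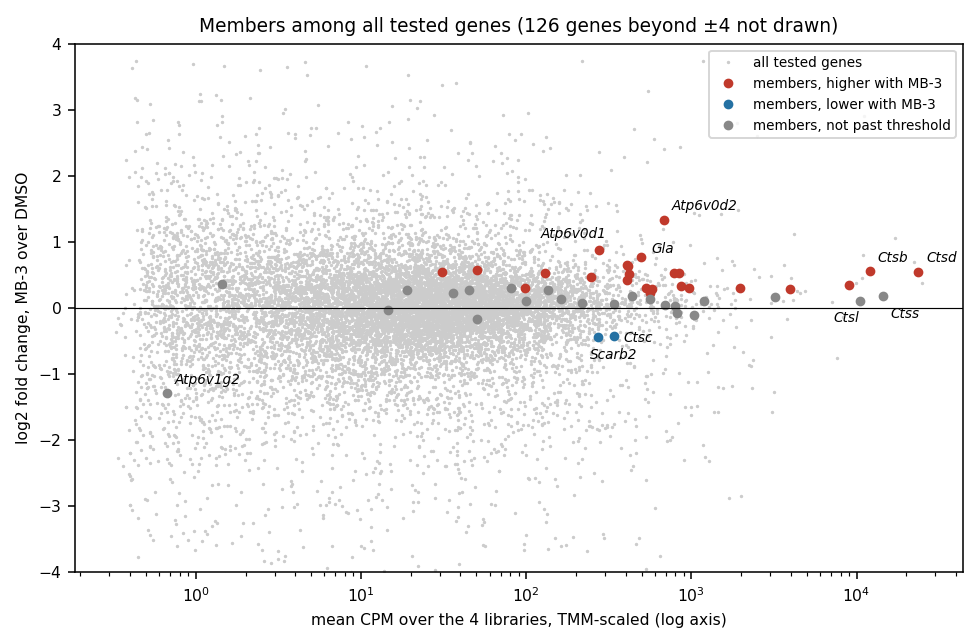
Log2 fold change (MB-3 over DMSO, y axis) against mean CPM over the 4 libraries (log x axis) for all 11841 tested genes in grey and the members in colour, with 126 genes beyond ±4 not drawn. Ctsd, Ctsb, Ctsl and Ctss lie at the abundant end, and the members range from -1.29 (Atp6v1g2) to 1.33 (Atp6v0d2).

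Some pump genes were higher in each of the 2 sectors, more evenly in V0 than in V1. Of 18 pump genes tested among the members, including the accessory proteins, 11 rose (61.1%), against 16.9% of all tested genes. Of the same 18, 0 fell, against 20.2% of all tested genes, and 7 did not pass, with a median log2 fold change of 0.30. Their summed level was 9605 and 9196 CPM with MB-3 and 7533 and 7363 CPM with DMSO. In the V0 sector alone, 5 of 7 were higher (71.4%) and the median was 0.52. In V1, 4 of 9 were higher (44.4%), 5 did not pass and the median was 0.08. Both MB-3 libraries lay above both DMSO libraries for 55.6% of these V1 genes and below for 33.3%. Over all tested genes these shares were 33.8% and 37.0%. Tcirg1, a subunit of V0, and Rnasek, which associates with V0, carry other names and are outside these counts. Tcirg1 did not pass and Rnasek was lower, as given below.

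In the V0 sector, the largest rise was that of Atp6v0d2 (ENSMUSG00000028238, chromosome 4 from 19876841 to 19922605), an isoform of subunit d known from macrophages and osteoclasts. It had 1024 and 926 CPM in the MB-3 libraries, against 398 and 376 CPM in the DMSO libraries. Both MB-3 values were far above both DMSO values, a 2.52-fold difference (log2 fold change 1.33, SE 0.080, edgeR adjusted p = 7.79e-05). Atp6v0d1 (ENSMUSG00000013160, chromosome 8 from 105524465 to 105566047), the widely expressed isoform of the same subunit, which joins the central stalk to the proton ring, had 370 and 350 CPM with MB-3, against 201 and 189 CPM with DMSO. The groups did not overlap, and the log2 fold change was 0.89 (SE 0.076, edgeR adjusted p = 3.34e-04).

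On a scale per gene length (FPKM, fragments per kilobase scaled to library size), Atp6v0d2 was the more abundant of the pair in each library. Its share of the 2 isoforms' summed FPKM was 68.2% and 67.3% with MB-3, against 60.6% and 60.7% with DMSO. The ratio of Atp6v0d2 to Atp6v0d1 was 2.15 and 2.05 with MB-3 and 1.54 and 1.55 with DMSO. The groups did not overlap, and the two-sided exact permutation p was 0.333, which is the smallest that 2 libraries against 2 can give.

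Subunit a forms the half-channels through which protons pass. Atp6v0a1, one of its isoforms, had 63.1 and 57.6 CPM with MB-3, against 41.6 and 39.4 CPM with DMSO (log2 fold change 0.58, SE 0.094, edgeR adjusted p = 4.70e-03). Atp6v0a2, an isoform known from endosomes and the Golgi apparatus, had 48.5 and 46.2 CPM with MB-3, against 60.4 and 45.1 CPM with DMSO. Its groups overlapped. The difference, -0.16 on the log2 scale (SE 0.15), did not pass and was 0.12 without DMSO replicate 1.

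The third isoform of subunit a in these cells is encoded by Tcirg1, whose name falls outside the Atp6v0 and Atp6v1 symbols. It made up 85.4% and 85.5% of the summed FPKM of the 3 isoforms with MB-3 and 86.6% and 87.8% with DMSO. Tcirg1 had 477 and 448 CPM with MB-3 and 478 and 444 CPM with DMSO, so the most abundant a isoform differed by less than the spread between replicates (log2 fold change 0.00, SE 0.075). The ratio of Atp6v0a1 to Atp6v0a2 in FPKM was 1.395 and 1.336 with MB-3 and 0.738 and 0.936 with DMSO, again with an exact permutation p of 0.333.

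**Figure D3:**
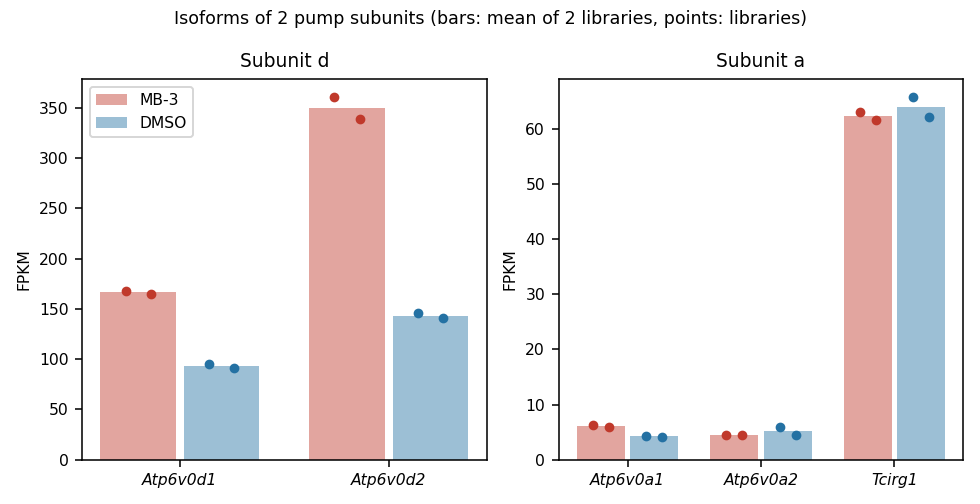
FPKM (y axis, from 0) of the isoforms of pump subunits d (left) and a (right) in MB-3 and DMSO libraries, with bars for the mean of 2 libraries and points for each. Both d isoforms are higher with MB-3 and Atp6v0d2 exceeds Atp6v0d1, while Tcirg1 is the most abundant a isoform in both groups at 61.7 to 65.8 FPKM.

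Other V0 genes moved less. Atp6v0e, a small membrane subunit, had 604 and 614 CPM with MB-3, against 527 and 517 CPM with DMSO (log2 fold change 0.22, SE 0.065, edgeR adjusted p = 0.0375). This call was lost in 5 of 11 alternative analyses, with an adjusted p of up to 0.125. Its counterpart Atp6v0e2 had 10 and 4 counts with MB-3 and 4 and 2 counts with DMSO, too few to be tested. Atp6v0c, which builds the proton-carrying ring, rose by 0.52 (SE 0.13, edgeR adjusted p = 0.0235). Its 2 MB-3 libraries lay apart, at 556 and 434 CPM, against 366 and 326 CPM with DMSO, and the call was lost without MB-3 replicate 1 or without DMSO replicate 2 (edgeR adjusted p up to 0.0784). Atp6v0b, the other ring gene, had 724 and 886 CPM with MB-3 and 776 and 803 CPM with DMSO, with overlapping groups.

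In the V1 sector, the genes that rose were Atp6v1c1, Atp6v1h, Atp6v1a and Atp6v1g1. Atp6v1c1 (ENSMUSG00000022295, chromosome 15 from 38661904 to 38692443), whose product links V1 to V0, had 507 and 493 CPM with MB-3, against 306 and 328 CPM with DMSO. Atp6v1h (ENSMUSG00000033793, chromosome 1 from 5070018 to 5162529), a regulatory subunit of the same junction, had 510 and 494 CPM with MB-3, against 315 and 330 CPM with DMSO. Neither gene's groups overlapped, and the log2 fold changes were 0.66 (SE 0.072) and 0.64 (SE 0.069). The edgeR adjusted p was 9.29e-04 for Atp6v1c1 and 9.06e-04 for Atp6v1h.

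Atp6v1a, the catalytic subunit that binds ATP, had 1026 and 967 CPM with MB-3, against 722 and 653 CPM with DMSO (log2 fold change 0.53, SE 0.079). Atp6v1b2, its non-catalytic partner in the same hexamer, had 808 and 788 CPM with MB-3, against 842 and 834 CPM with DMSO. Atp6v1b2 thus did not share the rise of Atp6v1a, and its own difference of -0.07 on the log2 scale (SE 0.063) did not pass (edgeR adjusted p = 0.426). The stalk genes Atp6v1d, Atp6v1e1 and Atp6v1f did not pass either, with log2 fold changes from -0.10 to 0.08.

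Subunit G, part of the outer stalk, came almost wholly from Atp6v1g1, which held at least 99.95% of the subunit's FPKM in every library. Atp6v1g1 had 608 and 567 CPM with MB-3, against 465 and 484 CPM with DMSO (log2 fold change 0.31, SE 0.072, edgeR adjusted p = 0.0178). Without MB-3 replicate 1 its edgeR adjusted p was 0.0835. Atp6v1g2, an isoform known from neurons, had 8 and 6 counts with MB-3 and 26 and 11 counts with DMSO, a difference of -1.29 on the log2 scale (SE 0.58) that did not pass. Its annotated exons overlap those of Nfkbil1 on the other strand. The libraries were made with a strand-specific kit, but no source used here says whether strand entered the counting.

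Isoform genes known from kidney and other specialised tissues were at or near 0. Atp6v1b1, Atp6v1c2, Atp6v1e2, Atp6v1g3 and the pseudogene Atp6v0c-ps1 had 0 counts in all 4 libraries, and Atp6v0a4 had 1 count. A count of 0 allows up to 3 counts, which is 0.168 and 0.167 CPM in the MB-3 libraries and 0.140 and 0.188 CPM in the DMSO libraries, for counting error only. These are the 6 rows that did not meet the minimum of 10 counts.

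Both accessory proteins of the pump were higher. Atp6ap2, also called the prorenin receptor, had 490 and 437 CPM with MB-3, against 356 and 337 CPM with DMSO (log2 fold change 0.42, SE 0.083, edgeR adjusted p = 9.86e-03). Atp6ap1, which takes part in pump assembly, had 649 and 614 CPM with MB-3, against 527 and 507 CPM with DMSO (log2 fold change 0.29, SE 0.070, edgeR adjusted p = 0.0198). Neither gene's groups overlapped, but the call of Atp6ap1 was lost without MB-3 replicate 1 (edgeR adjusted p = 0.0897) and without DMSO replicate 2 (edgeR adjusted p = 0.0543).

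**Figure D4:**
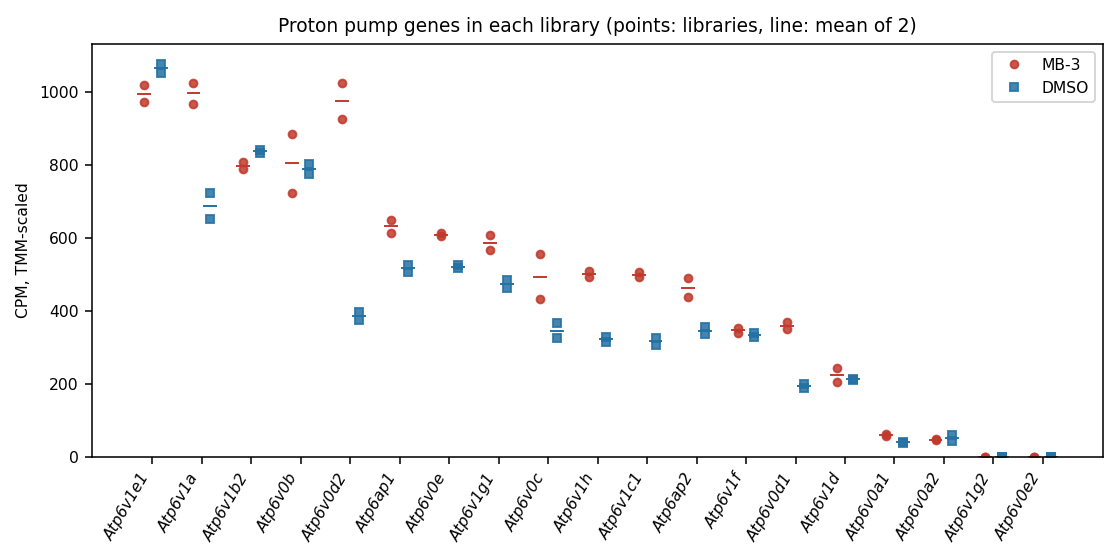
CPM (y axis, from 0) of the 19 pump genes with at least 10 counts in each library, MB-3 left of DMSO, ordered by mean level. Atp6v0d2 shows the widest gap, at 926 to 1024 CPM with MB-3 and 376 to 398 CPM with DMSO, and Atp6v1e1, Atp6v1b2 and Atp6v0b lie close together in both groups.

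Among the membrane proteins of the lysosome, 1 rose, 1 fell and 2 did not pass. This was 25.0% each way, near the 16.9% higher and 20.2% lower among all tested genes. Lamp1, a heavily glycosylated protein that lines the inner face of the membrane, had 4486 and 4159 CPM with MB-3, against 3586 and 3515 CPM with DMSO (log2 fold change 0.28, SE 0.067, edgeR adjusted p = 0.0182). This call was lost without DMSO replicate 2 (edgeR adjusted p = 0.0603). Lamp2, the related protein that also serves chaperone-mediated autophagy, differed by 0.10 on the log2 scale (SE 0.067). Mcoln1, a calcium channel of the lysosome with the TCACGTGA sequence in its promoter window, had 52.0 and 46.6 CPM with MB-3, against 41.8 and 39.6 CPM with DMSO. Its groups did not overlap, but the difference of 0.27 on the log2 scale (SE 0.098) missed the threshold (edgeR adjusted p = 0.0720).

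Scarb2 (ENSMUSG00000029426, chromosome 5 from 92441314 to 92506833), which encodes LIMP-2, a membrane protein that also serves as a sorting receptor, went the other way. It had 228 and 232 CPM with MB-3, against 312 and 311 CPM with DMSO. Both MB-3 values were lower, and the log2 fold change was -0.44 (SE 0.068, edgeR adjusted p = 3.81e-03).

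The proteases held most of the members' counts: 76630 and 74170 CPM with MB-3 and 59700 and 57150 CPM with DMSO. Of 10 tested, 5 rose (50.0%, against 16.9% of all tested genes), 1 fell (10.0%, against 20.2%) and 4 did not pass. The median log2 fold change of the 10 was 0.24. Those that rose were Ctsb, Ctsd, Ctsa, Tpp1 and Ctsk, by 0.31 to 0.56 on the log2 scale.

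Ctsd (ENSMUSG00000007891, chromosome 7 from 142371148 to 142388038), the main aspartic protease of the lysosome, had 27156 and 29095 CPM with MB-3, against 19326 and 19117 CPM with DMSO. Ctsb (ENSMUSG00000021939, chromosome 14 from 63122462 to 63145919), a cysteine protease, had 14949 and 13726 CPM with MB-3, against 9479 and 9981 CPM with DMSO. Both genes were clearly apart between the groups, with log2 fold changes of 0.55 (SE 0.063) and 0.56 (SE 0.070). The edgeR adjusted p was 1.09e-03 for Ctsd and 1.60e-03 for Ctsb.

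The other abundant cathepsin genes did not pass. Ctss, a cysteine protease that trims the invariant chain in antigen presentation, was the highest member per gene length, with 9057 and 7742 FPKM with MB-3 and 8316 and 7000 FPKM with DMSO. In CPM it had 16858 and 13865 with MB-3 and 14851 and 12293 with DMSO. The replicates of each group lay farther apart than the group means, and the log2 fold change was 0.18 (SE 0.12, edgeR adjusted p = 0.307). Ctsl, another cysteine protease, had 10888 and 10956 CPM with MB-3, against 10146 and 10088 CPM with DMSO (log2 fold change 0.11, SE 0.057, edgeR adjusted p = 0.179). Ctsz and Ctsh, both exopeptidases, had log2 fold changes of 0.17 and 0.05.

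The order of the most abundant proteases by mean FPKM differed between the groups. Ctsb, at 3046 and 2906 FPKM, was above Ctsz, at 2306 and 2315 FPKM, in both MB-3 libraries. With DMSO the 2 genes could not be ordered, since Ctsb had 2013 and 2155 FPKM and Ctsz 2129 and 2106 FPKM. Ctsd exceeded Ctsl with MB-3 and not with DMSO. It had 1.27 and 1.35 times the FPKM of Ctsl with MB-3, against 0.969 and 0.964 times with DMSO. Ctsb had 0.336 and 0.375 times the FPKM of Ctss with MB-3, against 0.242 and 0.308 times with DMSO. In each of the 4 ratios compared, those of the pump isoforms included, the groups did not overlap and the two-sided exact permutation p was 0.333, also after Benjamini-Hochberg adjustment, since no smaller value is possible.

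Ctsa, which encodes a carboxypeptidase that also protects beta-galactosidase and neuraminidase, rose by 0.53 (SE 0.069). Tpp1, a tripeptidyl peptidase, rose by 0.47 (SE 0.090). Ctsk, a collagen-degrading protease known from osteoclasts, rose by 0.31 (SE 0.067). Its call was lost without MB-3 replicate 1 (edgeR adjusted p = 0.0530), while its log2 fold change was 0.26 or more in all 11 alternatives. Ctsk (chromosome 3 from 95499256 to 95509362) and Ctss (from 95526786 to 95556403) lie close together in the genome.

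Ctsc (ENSMUSG00000030560, chromosome 7 from 88278085 to 88310888) was the protease gene that fell. Its product, dipeptidyl peptidase I, activates serine proteases of granules in immune cells. It had 309 and 272 CPM with MB-3, against 395 and 383 CPM with DMSO. The groups did not overlap, and the log2 fold change was -0.42 (SE 0.085, edgeR adjusted p = 0.0106).

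Among the hydrolases of glycans and glycolipids, 6 of 9 rose (66.7%) and 0 fell, with a median log2 fold change of 0.31. Of all tested genes, 16.9% rose and 20.2% fell. Gla (ENSMUSG00000031266, chromosome X from 134588149 to 134601125), which removes terminal galactose from glycolipids, had 632 and 621 CPM with MB-3, against 385 and 348 CPM with DMSO. This was a 1.71-fold difference (log2 fold change 0.77, SE 0.077, edgeR adjusted p = 6.40e-04). Gaa, the acid glucosidase that breaks down glycogen, had 37.7 and 36.3 CPM with MB-3, against 27.6 and 22.7 CPM with DMSO (log2 fold change 0.55, SE 0.12). The call of Gaa was lost without MB-3 replicate 1 (edgeR adjusted p = 0.0684).

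Hexa, a hexosaminidase subunit that acts on GM2 ganglioside, was the most abundant of these genes, with 2218 and 2129 CPM with MB-3, against 1783 and 1716 CPM with DMSO (log2 fold change 0.31, SE 0.064, edgeR adjusted p = 0.0111). Galc, a galactosylceramidase, rose by 0.53 (SE 0.080). Gusb, the beta-glucuronidase, rose by 0.34 (SE 0.079). Its call was lost without MB-3 replicate 1 or without DMSO replicate 2 (edgeR adjusted p up to 0.0739), while its log2 fold change was 0.28 or more in all 11 alternatives. Glb1, the beta-galactosidase, rose by 0.31 (SE 0.086), but was called in 5 of 11 alternative analyses only, and its exons overlap those of Tmppe on the same strand. Neu1, Man2b1 and Naglu, which remove sialic acid, mannose and N-acetylglucosamine, had log2 fold changes of 0.11, 0.14 and 0.31 and did not pass. Naglu had overlapping groups and turned to -0.03 without MB-3 replicate 2.

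None of the 3 sulfatase genes passed, and their levels were low. Arsb, which acts on dermatan and chondroitin sulfate, had 21.3 and 20.4 CPM with MB-3, against 18.4 and 15.98 CPM with DMSO (log2 fold change 0.28, SE 0.12, edgeR adjusted p = 0.130). Arsa, the sulfatase of sulfatide, had overlapping groups at 13.0 and 15.8 CPM with MB-3 and 15.2 and 14.0 CPM with DMSO. Sgsh, which acts on heparan sulfate, was at 1.25 to 1.73 CPM.

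The 3 hydrolases of lipids and thioesters did not pass either. Both MB-3 libraries were above both DMSO libraries for each, an order also seen in 33.8% of all tested genes. Asah1, the acid ceramidase, had 615 and 570 CPM with MB-3, against 530 and 543 CPM with DMSO (log2 fold change 0.14, SE 0.072, edgeR adjusted p = 0.168). Ppt1, which removes palmitate from proteins, and Smpd1, the acid sphingomyelinase, had log2 fold changes of 0.27 (SE 0.091) and 0.24 (SE 0.10). Ppt1 had an edgeR adjusted p of 0.0577 and was called in 6 of 11 alternative analyses. Its annotated exons overlap those of the more highly counted Cap1 on the other strand.

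Of the 2 precursor genes, Psap rose and Grn did not pass. Psap, whose product is cut into the saposins that lipid hydrolases need, had 10009 and 10121 CPM with MB-3, against 8023 and 7805 CPM with DMSO (log2 fold change 0.35, SE 0.058, edgeR adjusted p = 5.24e-03). Grn, the gene of progranulin, differed by 0.18 on the log2 scale (SE 0.086).

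The promoter sequence can be set beside these values. All 7 genes with TCACGTGA in a promoter window had a positive log2 fold change, as did 42 of all 49 tested members, and 6 of the 7 were called higher: Atp6v0d1, Atp6v1a, Atp6v0e, Ctsd, Ctsa and Gla, with Mcoln1 not past the threshold. Their median log2 fold change was 0.53, against 0.27 for the other 33 tested members with a window, of which 13 were higher and 2 lower. For the shorter CACGTG, 9 of 15 members were higher, with a median of 0.31, against 10 of 25 without it, with a median of 0.24. Some members that rose clearly, among them Psap and Galc, had no CACGTG in their windows, and Atp6v0d2, Atp6v1c1, Atp6v1h and Ctsb had no window in the sequence table. Ctsl and Arsa had a CACGTG in a window and were not called.

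A pair of other motifs was searched on both strands in the same windows. TGACNNNGC, a core of the element bound by NRF2, occurred in 11 of 46 member windows (23.9%) and in 12.4% of all windows, and 7 of the 11 members with it were higher and 1 was lower. Their median log2 fold change was 0.35, against 0.27 for the 29 without it, of which 12 were higher and 1 lower. The gap between these medians was about as wide as that for the short E-box CACGTG. For TCACGTGA the medians were 0.53 with it and 0.27 without it. None of these gaps was tested. TGANTCA, the AP-1 site, occurred in 4 member windows (8.70%) and in 7.81% of all windows. Of the 4 members with it 3 were higher, with a median of 0.33, against 16 of 36 without it, with a median of 0.28. TGACNNNGC and TGANTCA can share bases, and neither contains the E-box. A match is a run of letters and not a measured site.

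Other lysosomal genes outside the membership were read from the same fit. Of 51 tested, 23 rose (45.1%), 4 fell (7.84%) and 24 did not pass, with a median log2 fold change of 0.20. Over all tested genes 16.9% rose and 20.2% fell. With pump partners and protease inhibitors added to the 51, 28 rose and 7 fell. Without MB-3 replicate 1 these last counts were 16 higher and 7 lower. Called changes over 2-fold numbered 6 among the 51, against 1 among the members, a difference that was not tested. Over all tested genes 14.6% were called and changed over 2-fold.

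The largest called change in size was that of Hyal1, a hyaluronidase, at 10.8 and 10.7 CPM with MB-3, against 2.14 and 1.75 CPM with DMSO (log2 fold change 2.45, SE 0.21, edgeR adjusted p = 3.42e-04). Where the 4 libraries averaged 10 CPM or more, the 4 largest called changes were those of Acp5, Cln8, Lipa and Hgsnat. Acp5, the tartrate-resistant acid phosphatase known as an osteoclast enzyme, had 126 and 142 CPM with MB-3, against 719 and 741 CPM with DMSO (log2 fold change -2.45, SE 0.087, edgeR adjusted p = 1.30e-05). Cln8, a protein that helps lysosomal enzymes leave the endoplasmic reticulum, had 319 and 313 CPM with MB-3, against 96.8 and 89.8 CPM with DMSO (log2 fold change 1.76, SE 0.078). Lipa, the acid lipase of cholesteryl esters, had 2255 and 2160 CPM with MB-3, against 876 and 765 CPM with DMSO (log2 fold change 1.43, SE 0.085). Hgsnat, which acetylates heparan sulfate in the lysosomal membrane, rose by 1.10 (SE 0.081).

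The 12 pump partners were subunits with other names, such as Tcirg1, and genes of pump assembly and regulation. Of these, 3 were higher (25.0%) and 2 lower (16.7%), shares near the 16.9% and 20.2% of all tested genes. Wdr7, Dmxl2 and Dmxl1 belong to the rabconnectin complex, which promotes joining of V1 to V0. Wdr7 had 25.9 and 25.3 CPM with MB-3, against 12.7 and 10.6 CPM with DMSO (log2 fold change 1.13, SE 0.13). Dmxl2 rose by 0.67 (SE 0.12) and Dmxl1 by 0.63 (SE 0.092).

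The 2 that fell were Ncoa7 and Rnasek. Ncoa7, an interferon-induced gene whose product binds the pump, had 11.7 and 11.5 CPM with MB-3, against 69.7 and 68.1 CPM with DMSO (log2 fold change -2.57, SE 0.095, edgeR adjusted p = 1.52e-05). Rnasek, a small protein that associates with V0, had 41.8 and 39.5 CPM with MB-3, against 71.5 and 66.6 CPM with DMSO (log2 fold change -0.76, SE 0.091). The cystatin genes Cstb and Cst3, whose products inhibit cysteine cathepsins, rose by 0.31 (SE 0.061) and 0.22 (SE 0.067). Cst7, the third cystatin gene tested, fell to 1.676 and 1.004 CPM with MB-3, against 8.02 and 6.77 CPM with DMSO (log2 fold change -2.46, SE 0.31, edgeR adjusted p = 1.66e-03). It was the largest change among the inhibitors.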

How the data were processed

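The authors deposited 1 table of whole-number counts per gene, not normalized, and FPKM values (fragments per kilobase scaled to library size), per the file headers. Builds mm10 and GRCm38.p4 and the tools edgeR, HISAT2 and StringTie 1.3.0 stand in the submitters' processing notes. The handling of multi-mapping reads and strand and the annotation release are not given there. Columns were matched to samples by replicate number and treatment initial.

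The test on counts was glmQLFit and glmQLFTest of edgeR 4.0.16 (R 4.3.3; group only, filterByExpr, TMM factors 0.966 to 1.02), adjusted by Benjamini-Hochberg over 11841 genes. The standard error (SE) is the size of the log2 fold change over the root of F. One count was worth 0.0466 to 0.0627 CPM. DESeq2 1.42.0 and limma 3.58.1 on log2(FPKM + 0.1) were alternatives. Replicates were not copies (chi-square per degree of freedom 11.7 for MB-3 and 13.8 for DMSO). The test was also run on simulated counts that had the same variability setting for every gene. The outcome is not given here and lends nothing to the calls above. Promoter windows came from RefSeq and biotypes and exon overlaps from GENCODE M21, matched by symbol or identifier.

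Members, lists and motifs were chosen with earlier results of these data known. Values in every library are given, by role, for the 2 largest called changes, the highest mean FPKM, members called lower and pump isoform pairs. For the other lists the rule was the 4 largest called changes of at least 10 CPM. Other genes were named after their values were seen.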

Additional observations from a re-analysis of the deposited data

How the results depend on the processing

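The counts were recomputed under 11 alternatives: RLE or total-count scaling, no filter, at least 10 CPM in 2 libraries, DESeq2, limma on log2 FPKM, a replicate block, and leaving out each library. Members called higher ranged from 16 (without MB-3 replicate 1) to 29 (with the replicate block), and 2 were lower each time. Their median log2 fold change ranged from 0.24 to 0.35. Of the 24 members called higher, 15 were called in all 11 alternatives, as were both Scarb2 and Ctsc. The median over all genes moved by less than 0.1 on the log2 scale under every scaling.

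With 1 library left out, whole-table higher calls ranged from 1283 to 1802 (1999 in the full fit), where the lone library of a group is assumed to vary like the others. The calls among other lysosome genes, pump partners and inhibitors together (35 in the full fit) then ranged from 23 to 33, and the higher ones (28) from 16 to 28. Of 252 values for 23 named members, 240 kept direction and call, 10 lost the call, 1 gained it (Ctss, with the replicate block) and 1 turned: Atp6v0a2, which ranged from -0.34 without DMSO replicate 2 to 0.12 without DMSO replicate 1.

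The replicate block gave 31 called members, against 26. Equal numbers share no stated origin, and the deviations of same-numbered libraries correlated with r = 0.217 across genes. Depth kept Atp6v0e2, with 20 counts in all, out of the test.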
